A study of Mus musculus with 12 samples.

Results

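The mouse major histocompatibility complex genes, named H2 for histocompatibility 2, were described in single liver cells of anemic and control pups. Members were all genes whose symbol begins with H2 and a hyphen, which gave 34 of the 32285 genes in the count matrices. They comprised 2 classical class I genes (H2-K1 and H2-D1), 22 non-classical class I genes (the H2-Q, H2-T and numbered H2-M genes), 4 genes for class II surface chains, 5 genes for class II peptide loading, and H2-Ke6, which lies in the region but encodes a steroid dehydrogenase. The rule read gene symbols only.

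Livers came from C57BL/6J pups of both sexes on postnatal day 11, 6 controls and 6 anemic mice, with 1 droplet library for each mouse. Anemia was produced by drawing blood every other day from postnatal day 2 to day 10, at 20 µL per gram of pup through a facial vein, until red cells made up 20 to 24% of blood volume instead of 45 to 60%. Controls were stuck with a needle and not bled. The whole liver was dissociated, with no sort named, and the labels put all 12 libraries in 1 batch. Y-linked RNA was near 0 in 4 control and 2 anemic libraries, so the sexes were not balanced between the groups. Each library held between 45751640 and 74344118 unique molecular identifiers (UMIs, counts of captured RNA molecules) over 14184 to 21186 cells, 206146 cells in all, and H2 genes took 1593635 of these UMIs.

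Class I molecules are carried by nearly all nucleated cells and show peptides made inside the cell to T cells, while NK cells read their presence. Class II molecules are carried mainly by dendritic cells, B cells and activated macrophages, and are loaded with peptides from engulfed material by the H2-DM pair under control of the H2-O pair. Class I genes and the class II regulator Ciita are induced by interferons, and H2-Q10 is known as a class I gene of the liver whose product is secreted.

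All 34 members matched protein-coding genes of GENCODE M21 on chromosome 17 of GRCm38, between positions 33996017 and 37483552. H2-K1 lies at 33996017 to 34000347 on the minus strand, H2-D1 at 35262730 to 35267499 and H2-Q10 at 35470089 to 35474563 on the plus strand, and H2-Aa at 34282744 to 34287823 on the minus strand. Promoter entries, the 250 bases before the RefSeq start on GRCm38.p6, existed for 31 members. The promoters of the classical gene H2-K1, the liver gene H2-Q10 and the class II gene H2-Aa are shown, 5′ to 3′ along each gene. Capitals mark exact matches, on either strand, of GGGGATTCCCC (the class I κB element, with its letters taken from H2-K1), TTTCNNTTC (a core of interferon response elements) or CTGATTGG (the class II Y box).
H2-K1, chr17:34000334-34000583, minus strand: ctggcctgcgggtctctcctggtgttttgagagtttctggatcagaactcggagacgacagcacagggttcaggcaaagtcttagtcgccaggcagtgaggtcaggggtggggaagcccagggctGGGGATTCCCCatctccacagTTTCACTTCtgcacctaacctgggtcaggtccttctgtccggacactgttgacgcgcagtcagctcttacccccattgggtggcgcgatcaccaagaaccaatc
H2-Q10, chr17:35469839-35470088, plus strand: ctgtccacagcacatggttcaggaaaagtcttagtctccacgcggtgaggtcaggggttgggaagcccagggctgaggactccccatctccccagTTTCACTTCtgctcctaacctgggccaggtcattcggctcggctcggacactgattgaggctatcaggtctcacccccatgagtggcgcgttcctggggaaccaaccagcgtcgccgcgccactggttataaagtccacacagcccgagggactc
H2-Aa, chr17:34287824-34288073, minus strand: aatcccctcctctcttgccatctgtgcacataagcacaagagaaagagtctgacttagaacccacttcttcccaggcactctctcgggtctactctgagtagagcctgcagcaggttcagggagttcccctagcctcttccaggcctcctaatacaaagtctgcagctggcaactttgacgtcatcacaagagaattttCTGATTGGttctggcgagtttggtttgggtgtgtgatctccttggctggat
Beside H2-K1 itself, the κB letters stood in the windows of H2-D1 and H2-Q6, and they stood in 0.0304% of 32851 promoter windows of all genes. In H2-Q10 the closest window differed at G2A and T6C, counted from 1 at the 5′ end of the element, with the element's base first. The interferon core stood in 8 member genes, H2-K1, H2-D1 and H2-Q10 among them, and in 6.31% of all windows. The Y box stood in 16 member genes and in 3.83% of all windows. Of these genes only H2-Aa, H2-Eb1, H2-Eb2 and H2-Oa were class II, and the rest were class I genes such as H2-D1, H2-Q6 and H2-T23. A match of letters is a description of the window and does not show binding.

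Cells were grouped by clusters built without any H2 gene, and 42 of 62 clusters were named by marker genes into 16 classes, each called like its cell type (B-like, hepatocyte-like and so on). The remaining 20 clusters were left unnamed, 15 of them by conditions added after the clusters were seen. Levels are given as CPM, the counts for each 1000000 UMIs of a class in a mouse. The assay reads transcript ends and the values are not scaled to length, so levels are compared between cell classes and between groups, not between genes. Near-identical genes can lose reads that match more than 1 of them: 32.4% of the 25-base words in the transcript ends of H2-K1, 23.9% in H2-D1 and 12.2% in H2-Q10 also occur in another member, against 1.01% in H2-Aa and 0% in H2-Eb1, H2-Ke6 and H2-T22. This share was 32.2% in H2-Q6, 29.9% in H2-T23 and 16.2% in H2-Q4. For the 2 beta chains of H2-DM it was 29.6% in H2-DMb1 and 2.90% in H2-DMb2.

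Of the 26 members with any UMI in a named class, 9 had their highest mean in conventional dendritic-like cells, 6 in NK-like cells and 3 in hepatocyte-like cells. The other 8 members, H2-M1, H2-M11 and the 6 H2-M10 genes, had no UMI there, and H2-T3 and H2-M9 had only 4 and 6.

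**Figure D1:**
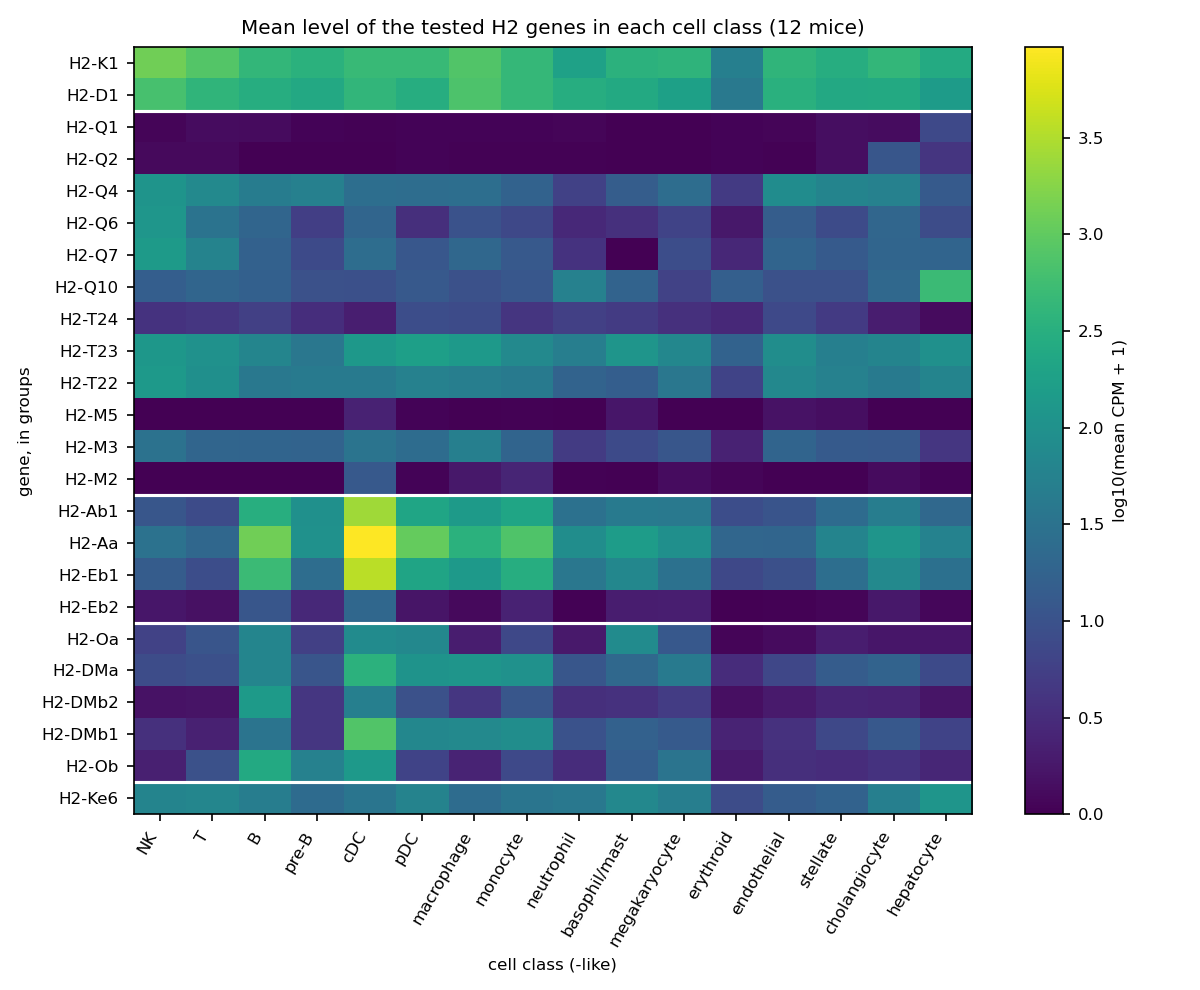
Mean level of the 24 members that entered a test (rows, in groups divided by white lines: classical class I, non-classical class I, class II surface chains, class II peptide loading, H2-Ke6) in each of the 16 cell classes (columns), as log10 of the mean CPM over 12 mice plus 1. Rows are read along the cell classes: the class II surface chain rows are brightest in conventional dendritic-like (cDC) cells at up to 9304 CPM for H2-Aa, and H2-Q10 is brightest in hepatocyte-like cells at 507 CPM.

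H2-K1, the classical class I gene of the K locus, was highest in NK-like cells at 1295 ± 144 CPM (SD, n = 12 mice, range 1084 to 1536). T-like cells followed at 802 ± 95.6 CPM and macrophage-like cells at 787 CPM, and the ranges of NK-like and T-like cells did not overlap. The NK-like clusters also had T cell genes among their leading genes, Cd3g in cluster 9 and Trbc2, Trac and Cd3d in cluster 10. Erythroid-like cells were lowest at 50.5 CPM. H2-D1, the classical gene of the D locus, was highest in macrophage-like cells at 713 ± 181 CPM (range 443 to 1071) and next in NK-like cells at 660 ± 82.0 CPM, with overlapping ranges. It too was lowest in erythroid-like cells, at 39.2 CPM.

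Among non-classical class I genes, H2-Q4, H2-Q6, H2-Q7 and H2-T22 were highest in NK-like cells, at 112, 119, 146 and 139 CPM. For H2-Q6 and H2-Q7 the NK-like range lay clear of every T-like value, while for H2-Q4 and H2-T22 it overlapped the next class. H2-T23, which encodes Qa-1, the ligand of an inhibitory NK receptor, was highest in plasmacytoid dendritic-like cells at 173 ± 30.5 CPM, and macrophage-like cells at 139 ± 43.6 CPM overlapped them. H2-M3, which presents formylated peptides, was highest in macrophage-like cells at 49.9 ± 8.46 CPM, and conventional dendritic-like cells at 32.5 ± 5.01 CPM overlapped them.

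H2-Q10 was a gene of hepatocyte-like cells, which held 74.2% of its UMIs in named classes. Its level there was 507 ± 126 CPM (n = 12 mice, range 267 to 645). Neutrophil-like cells came next at 54.6 ± 13.2 CPM (range 19.2 to 71.5), and the other 14 classes lay between 5.15 and 20.6 CPM. The ranges of hepatocyte-like and neutrophil-like cells did not overlap. H2-Q1 was also highest in hepatocyte-like cells, at 6.53 CPM, and H2-Q2 in cholangiocyte-like cells, at 10.7 CPM, where the range overlapped that of hepatocyte-like cells and 78.9% of cells were called doublets.

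The class II surface chains H2-Aa, H2-Ab1 and H2-Eb1 were highest in conventional dendritic-like cells by a wide margin. H2-Aa, the alpha chain of the I-A molecule, stood at 9304 ± 911 CPM there (range 7987 to 11055) against 1296 ± 302 CPM in B-like cells (range 916 to 1787) and 1091 CPM in plasmacytoid dendritic-like cells. H2-Ab1, its beta chain partner, stood at 2505 ± 353 CPM against 307 ± 54.2 CPM in B-like cells, and H2-Eb1, a beta chain of the I-E type, at 3577 ± 372 CPM against 498 ± 106 CPM. For all 3 genes the range in conventional dendritic-like cells lay clear of the range in B-like cells. For H2-Eb2, also highest in conventional dendritic-like cells, the ranges overlapped (20.2 ± 7.58 CPM against 10.6 ± 4.09 CPM in B-like cells). H2-Aa was lowest in endothelial-like cells.

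The peptide-loading genes divided between these cells. H2-DMa and H2-DMb1, which form the H2-DM exchange factor, were highest in conventional dendritic-like cells, at 352 ± 22.0 and 766 ± 70.2 CPM. H2-DMb2, the other beta chain of H2-DM, was highest in B-like cells at 143 ± 31.7 CPM and stood at 51.6 ± 14.6 CPM in conventional dendritic-like cells, and H2-Ob, a chain of the H2-DM inhibitor H2-O, was highest in B-like cells at 260.5 ± 49.3 CPM against 135 ± 20.5 CPM. H2-Oa, the partner of H2-Ob, did not separate its highest classes: conventional dendritic-like, basophil/mast-like and plasmacytoid dendritic-like cells lay at 81.7, 80.9 and 69.5 CPM.

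Before anemic mice were compared with controls, the libraries were compared with each other. The anemia 2 and anemia 3 libraries stood apart from the other 4 anemic mice: they held 4886 and 2498 of the 9360 anemic monocyte-like cells. The summed level of 14 interferon-induced genes was highest in anemia 2 among all 12 mice in all 16 classes, for example 2774 CPM in hepatocyte-like cells, where anemia 3 had 516 CPM and the other 10 mice 215 to 758 CPM. Among controls, control 2 had the highest interferon sum in all 16 classes. Libraries shared 51 to 121 barcodes pairwise, at most 0.694% of the smaller library. Results are therefore given with and without anemia 2 and anemia 3 where that changes them. Calls gained without both included H2-Q7 in conventional dendritic-like cells (log2 fold change -0.98, edgeR adjusted p = 0.0467) and H2-M3 in stellate-like cells (-0.62, adjusted p = 0.0255). In those fits 0.771% and 13.1% of all genes were called. Both mice were left out after their values were seen, so gained calls are a description.

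UMIs were summed within each class and mouse and tested with edgeR's quasi-likelihood test, with Benjamini-Hochberg adjustment over all genes of the class, and a gene was called at an adjusted p under 0.05. Of 270 pairs of a member and a class that could be tested, 10 were called higher and 15 lower in anemic mice, over 12 of the 24 tested members. The balance of directions depended on the setting, with 5 higher and 18 lower without TMM scaling (edgeR's adjustment of library sizes), 5 and 19 with doublets left out, 2 and 16 with H2 genes used in clustering, and 3 and 16 without anemia 2 and anemia 3, leaving H2-K1 and H2-D1 aside. The median log2 fold change of the 270 pairs was 0.05. Background is the share of all genes that were called in the same class. It was 3.02% in B-like, 1.32% in plasmacytoid dendritic-like, 54.1% in hepatocyte-like, 18.5% in endothelial-like, 15.1% in stellate-like and 3.06% in macrophage-like cells. It was 1.41% in pre-B-like, 0.967% in conventional dendritic-like, 0.797% in T-like, 0.593% in erythroid-like, 0.524% in NK-like and 0.181% in monocyte-like cells. In the remaining classes, neutrophil-like (0.816%), basophil/mast-like (0.753%), megakaryocyte-like (0.13%) and cholangiocyte-like (0.0307%) cells, none of 50 pairs was called by edgeR and 1 had an unadjusted p under 0.05. DESeq2 tested 27 pairs there and the joint limma voom model 80, and neither called any. The p-values measure the spread between mice, and fewer RNA molecules per cell cannot be told apart from fewer cells of a subtype within a class.

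Of the class II genes, 4 of 9 rose in B-like cells and 2 of 8 fell in plasmacytoid dendritic-like cells of anemic mice. In B-like cells all 9 class II members tested had a log2 fold change above 0, with a median of 0.37 beside 0.00 for all genes tested there, and all 9 had an unadjusted p under 0.05. In plasmacytoid dendritic-like cells all 8 members tested had one below 0, with a median of -0.25 beside 0.01 for all genes, and 3 had an unadjusted p under 0.05. The share of all genes with such an unadjusted p is not given here or below, so these counts are a description. The 4 called in B-like cells were H2-Aa, H2-Eb1, H2-DMb2 and H2-Ob, of which H2-DMb2 alone stayed called without anemia 2 and anemia 3. The 2 called in plasmacytoid dendritic-like cells were H2-Aa and H2-Ab1, and the joint voom model called neither.

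In B-like cells, H2-Aa ran from 916 through a median of 1093 to 1273 CPM in controls and from 1103 through 1524 to 1787 CPM in anemic mice. 5 of 6 anemic mice lay above every control, and the groups overlapped by 1 mouse. The log2 fold change was 0.49 ± 0.12 (SE, n = 6 each, edgeR quasi-likelihood adjusted p = 0.0275). H2-Eb1 ran from 339 through 446 to 496 CPM in controls and from 425 through 556 to 709 CPM in anemic mice, again with 5 of 6 above every control. Its log2 fold change was 0.42 ± 0.11 (edgeR adjusted p = 0.0484).

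H2-DMb2 ran from 110.3 through 116 to 133 CPM in control and from 125 through 171 to 199 CPM in anemic B-like cells. All anemic mice but 1 lay above every control, and the log2 fold change was 0.52 ± 0.10 (edgeR adjusted p = 0.00714). H2-Ob ran from 199 through 232 to 252 CPM in controls and from 220.2 through 294 to 367 CPM in anemic mice, with 5 of 6 above every control and a log2 fold change of 0.37 ± 0.10 (edgeR adjusted p = 0.0485). H2-Ab1 stood at 274 ± 34.1 CPM in controls and 341 ± 51.0 CPM in anemic mice and was not called (log2 fold change 0.33 ± 0.10, edgeR adjusted p = 0.0894). Of the genes outside the complex, Ciita, the master activator of class II transcription, rose from 10.4 to 23.4 CPM with no overlap between the groups (log2 fold change 1.17 ± 0.22, edgeR adjusted p = 0.00729). The groups did not overlap for 2.19% of all genes tested in B-like cells. March1, a ubiquitin ligase that removes class II from the surface, rose too (1.17 ± 0.30, edgeR adjusted p = 0.0422), so that 2 of 13 class II pathway genes were called in B-like cells, where 3.02% of all genes were.

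Of the class II calls in B-like cells, that of H2-DMb2 held when any 1 mouse was left out (log2 fold change 0.46 to 0.60), while H2-Aa lost its call in 6 of 12 such fits (0.44 to 0.57), H2-Eb1 in 10 (0.35 to 0.50) and H2-Ob in 9 (0.30 to 0.45). Y-linked RNA was near 0 in 4 control and 2 anemic libraries, and with it as a covariate H2-DMb2 stayed called (0.48) while H2-Aa (0.43, edgeR adjusted p = 0.0661), H2-Eb1 (0.37, adjusted p = 0.113) and H2-Ob (0.29, adjusted p = 0.122) did not. H2-DMb2 was also the one that stayed called without anemia 2 and anemia 3, at a log2 fold change of 0.46, with 1.54% of all genes called. H2-Aa (0.39, edgeR adjusted p = 0.118), H2-Eb1 (0.37, adjusted p = 0.142) and H2-Ob (0.36, adjusted p = 0.127) then kept their direction without a call. The B-like class also differed in make-up: cluster 5, whose summed level of H2-Aa, H2-Ab1 and H2-Eb1 was 389 CPM against 2026 and 3006 CPM in clusters 6 and 7, held 27.1% of control and 16.1% of anemic B-like cells. Within clusters 6 and 7, H2-DMb2 was called (0.43 and 0.35 on the log2 scale, where 1.16% and 1.89% of genes were called). H2-Aa missed the threshold there, at 0.45 ± 0.12 (edgeR adjusted p = 0.0624) and 0.34 ± 0.09 (adjusted p = 0.0558), and stood at 0.17 ± 0.18 in cluster 5.

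In plasmacytoid dendritic-like cells, H2-Aa ran from 1025 through 1326 to 1519 CPM in controls and from 711 through 813 to 1103 CPM in anemic mice. 4 of 6 anemic mice lay below every control. H2-Aa fell by 0.58 ± 0.12 on the log2 scale (n = 6 each, edgeR adjusted p = 0.0182). H2-Ab1 ran from 166 through 251 to 324 CPM in controls and from 129 through 165 to 202 CPM in anemic mice, 3 of them below every control, and fell by 0.62 ± 0.14 (edgeR adjusted p = 0.0289). H2-Eb1 stood at 244 ± 54.8 CPM in controls and 165 ± 51.7 CPM in anemic mice and was not called (log2 fold change -0.56 ± 0.17, edgeR adjusted p = 0.115).

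The lower class II level was also seen within cluster 31, which held 3592 of the 3687 plasmacytoid dendritic-like cells: H2-Aa fell by 0.61 and H2-Ab1 by 0.64 on the log2 scale (edgeR adjusted p = 0.00924 and 0.0168, with 1.12% of genes called). The defining markers of the class had a summed level of 7549 to 9020 CPM in controls and 7896 to 9872 CPM in anemic mice. Cd74, the invariant chain that escorts class II, stood at 8635 CPM in controls and 6416 CPM in anemic mice and was not called (log2 fold change -0.42 ± 0.11, edgeR adjusted p = 0.0727). Markers of macrophages, whose class II genes could enter the sums, ran from 146 to 732 CPM in controls and from 161 to 389.9 CPM in anemic mice, and those of conventional dendritic cells from 394 to 445 and from 383 to 572 CPM. Without anemia 2 and anemia 3, H2-Aa (log2 fold change -0.66) and H2-Eb1 (-0.68) were called and H2-Ab1 (-0.57, edgeR adjusted p = 0.0949) was not, with 0.597% of all genes called. Leaving out control 1 alone ended both calls (-0.54 for each, edgeR adjusted p = 0.059 and 0.0898), and H2-Ab1 also lost its call without control 3, 4 or 5 or anemia 2 or 4 (-0.63 to -0.55). In the joint voom model the values were close but not called (H2-Aa -0.55, adjusted p = 0.431, and H2-Ab1 -0.57, adjusted p = 0.523).

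**Figure D2:**
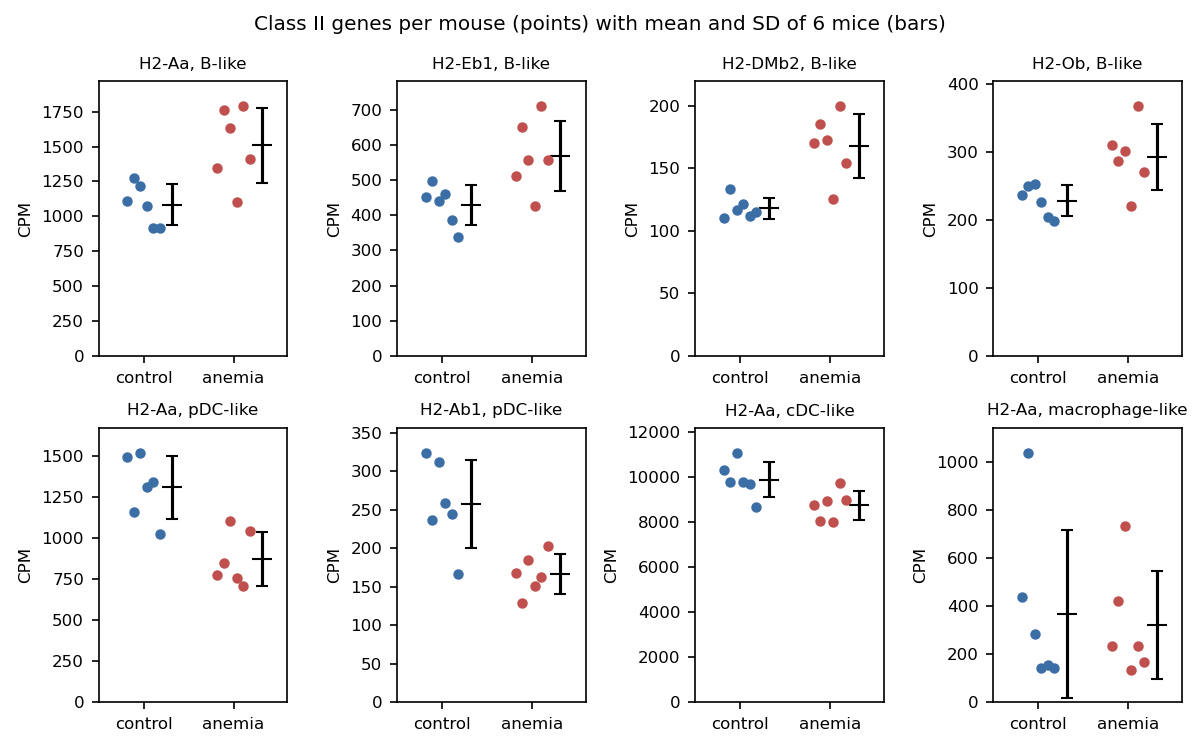
CPM of class II genes in each mouse (points; blue control, red anemia) with the mean and SD of 6 mice beside them, axes starting at 0. In B-like cells 5 of 6 anemic mice lie above every control for H2-Aa, H2-Eb1, H2-DMb2 and H2-Ob, in plasmacytoid dendritic-like (pDC) cells 4 and 3 of 6 lie below every control for H2-Aa and H2-Ab1, and in macrophage-like cells 1 control mouse reaches 1036 CPM.

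The share of cells with at least 1 UMI of H2-Aa, H2-Ab1 or H2-Eb1 moved the same way. Each cell was thinned to 1000 UMIs, cells below that depth were left out, and shares were compared by exact two-sided Mann-Whitney tests with Benjamini-Hochberg adjustment over 7 classes. In plasmacytoid dendritic-like cells the share was 62.1 ± 3.07% in controls (range 57.6 to 65.6%) and 46.1 ± 3.22% in anemic mice (range 43.0 to 51.5%). The groups did not overlap and the difference was -16.0 percentage points. The exact p was 0.00216, the smallest that 6 against 6 mice can give, and the adjusted p was 0.0152. Unthinned percentages, here and in the next paragraphs, pool all cells of a group and are not means of mice. They were 75.8% and 63.1%, at median depths of 2668 and 2973 UMIs, and thinning left out 1.52% and 1.11% of cells.

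In B-like cells the share was 54.7 ± 3.94% in controls (range 49.7 to 60.1%) and 65.7 ± 6.30% in anemic mice (range 58.0 to 72.7%). The exact p was 0.0152 and its adjusted value 0.053, so the difference of 11.0 percentage points missed the threshold at this depth, while thinning to 500 or 2000 UMIs placed it inside (adjusted exact p = 0.0303 and 0.0152). Unthinned shares were 57.1% and 68.9%, at median depths of 1322 and 1465 UMIs, and 16.6% and 10.1% of cells lay under 1000 UMIs. As a background for free RNA, neutrophil-like cells had a share of 3.09 ± 1.15% in controls and 2.78 ± 1.90% in anemic mice, and erythroid-like cells 1.64 ± 0.53% and 1.41 ± 0.78%. Endothelial-like cells, at 2.20 ± 0.84% and 3.10 ± 2.72%, lay near that background. Unthinned and pooled over cells they stood at 8.07% and 11.0%, at median depths of 3536 and 4440 UMIs.

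**Figure D3:**
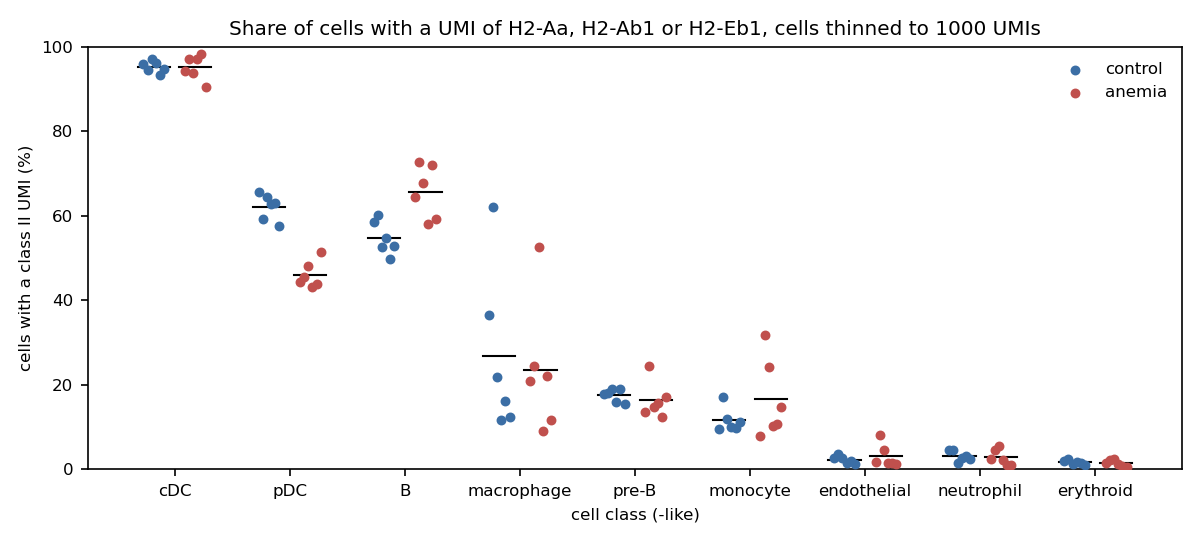
Percentage of cells with at least 1 UMI of H2-Aa, H2-Ab1 or H2-Eb1 in each mouse (points; blue control, red anemia) after thinning each cell to 1000 UMIs, by cell class, with bars at the mean of 6 mice. Plasmacytoid dendritic-like (pDC) cells separate into 57.6 to 65.6% in controls and 43.0 to 51.5% in anemic mice, and neutrophil-like and erythroid-like cells show the background.

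In conventional dendritic-like cells, the cells with the highest class II level, 95.3 ± 1.38% of control and 95.3 ± 2.91% of anemic cells had a class II UMI (exact p = 0.937, adjusted p = 1), or 93.6% and 92.5% unthinned. H2-Aa ran from 8668 through 9765 to 11055 CPM in controls and from 7987 through 8853 to 9718 CPM in anemic mice, and the groups overlapped (log2 fold change -0.24 ± 0.08, edgeR adjusted p = 0.153). H2-Ab1 stood at 2745 ± 257 and 2265 ± 264 CPM (-0.34 ± 0.09, edgeR adjusted p = 0.0909), and H2-Eb1 at 3780 ± 294 and 3374 ± 345 CPM (-0.23 ± 0.09, edgeR adjusted p = 0.236). Of 9 class II members, 0 were called by edgeR, 6 had an unadjusted p under 0.05 and 8 had a log2 fold change below 0, with a median of -0.23 beside 0.01 for all genes. DESeq2 called 1 of them and the joint voom model 0.

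Macrophage-like and monocyte-like cells varied widely between mice of the same group. H2-Aa in macrophage-like cells ran from 143 through 221 to 1036 CPM in controls and from 136 through 235 to 731 CPM in anemic mice (log2 fold change -0.11 ± 0.55, edgeR adjusted p = 0.931). The groups overlapped over most of their range. In monocyte-like cells H2-Aa stood at 684 ± 235 and 810.3 ± 347 CPM (0.35 ± 0.29, edgeR adjusted p = 0.648). That class included cluster 52, led by the granule genes Elane, Mpo, Prtn3 and Ctsg, which are also made by early neutrophils, with F13a1 and Ly6c2 among its leading genes. Pooled over mice, cluster 52 held 21.1% of control and 9.01% of anemic monocyte-like cells. By mouse its share was 15.4 to 26.8% in controls, 3.25% and 10.8% in anemia 2 and anemia 3 and 15.3 to 26.9% in the other 4 anemic mice. Cluster 52 had 340 CPM of H2-Aa, H2-Ab1 and H2-Eb1, against 2310 and 1774 CPM in clusters 33 and 60. Without cluster 52, an alternative chosen after the values were seen, H2-Aa stood at 1066 and 1149 CPM (0.16 ± 0.25, edgeR adjusted p = 0.829). The share of cells with a class II UMI was 26.8 ± 19.5% and 23.4 ± 15.6% in macrophage-like cells (unthinned 44.9% and 44.1%, exact p = 0.937) and 11.5 ± 2.86% and 16.6 ± 9.43% in monocyte-like cells (unthinned 15.8% and 36.7%, exact p = 0.485). The unthinned values pool cells, and anemia 2 and anemia 3 held 4886 and 2498 of the 9360 anemic monocyte-like cells. Pre-B-like cells stood at 17.5 ± 1.58% and 16.3 ± 4.32% (unthinned 43.0% and 40.5%, exact p = 0.18). Over both classes, 0 of 17 class II pairs were called, 0 had an unadjusted p under 0.05, and DESeq2 and the joint voom model called 0. Their clusters were not the same in the groups: cluster 55 (Prg4, Saa3, Marco) held 4.35% of control and 28.0% of anemic macrophage-like cells, and cluster 60 (Ly6i, Saa3, Nos2) held 5.08% of control and 51.5% of anemic monocyte-like cells. These shares pool cells over mice and rested on anemia 2 and anemia 3. Cluster 60 made up 79.2% and 34.3% of the monocyte-like cells of those mice, 2.77 to 8.42% in the other 4 anemic mice and 1.86 to 10.7% in controls. Cluster 55 made up 61.4% and 49.8% of their macrophage-like cells, 5.43 to 14.4% in the other 4 and 2.57 to 8.13% in controls.

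H2-Q10 was lower in anemic mice in most classes. It was called lower in 10 of the 14 classes in which it could be tested, and the groups did not overlap in 8 of the 16 classes. In B-like cells it ran from 15.0 through 22.0 to 30.8 CPM in controls and from 4.32 through 8.72 to 14.8 CPM in anemic mice (log2 fold change -1.33 ± 0.25, edgeR adjusted p = 0.0080). In erythroid-like cells it ran from 19.0 through 23.0 to 30.3 CPM in controls and from 3.99 through 6.41 to 9.40 CPM in anemic mice, where groups of 1.77% of all genes did not overlap (-1.51 ± 0.30, edgeR adjusted p = 0.0305). The erythroid-like class differed in make-up, since cluster 16, with 15.7 CPM of H2-Q10, held 61.5% of its control and 33.5% of its anemic cells, and clusters 17 and 20, with 9.78 and 4.66 CPM, held 25.7% and 6.49% of control and 40.4% and 19.9% of anemic cells. Within clusters 16 and 17 H2-Q10 was called lower as well (-1.35 and -1.60, where 6.48% and 7.07% of genes were called), and in clusters 20 and 51 it was too low to be tested. In pre-B-like cells the level fell from 12.2 ± 2.17 to 5.26 ± 1.55 CPM, without overlap as for 1.74% of genes (-1.34 ± 0.18, edgeR adjusted p = 0.000402).

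In macrophage-like, monocyte-like and endothelial-like cells the groups did not overlap either, which held for 3.44%, 0.979% and 10.5% of all genes tested there. The level fell from 12.5 ± 2.92 to 4.76 ± 1.66 CPM in macrophage-like cells (log2 fold change -1.36, edgeR adjusted p = 0.0061). It fell from 16.1 ± 2.46 to 5.96 ± 1.66 CPM in monocyte-like cells (-1.40, adjusted p = 0.0114, and -1.73, adjusted p = 0.014, without cluster 52, where 0.566% of genes were called) and from 11.3 ± 2.46 to 5.74 ± 1.48 CPM in endothelial-like cells (-0.87, adjusted p = 0.0047). Of the 5 endothelial-like clusters, H2-Q10 was called in cluster 27 (-1.29, with 15.5% of genes called) and stood at -1.11 to -0.54 without a call in the other 4. Cluster 27, at 12.8 CPM, held 45.3% of control and 17.5% of anemic endothelial-like cells, and cluster 28, at 7.16 CPM, held 29.5% and 51.7%. NK-like cells went from 19.8 ± 4.52 to 9.06 ± 3.10 CPM without overlap, as for 1.49% of genes (-1.16, adjusted p = 0.0317). T-like cells (-1.59, from 27.5 to 10.1 CPM), conventional dendritic-like cells (-1.77, from 12.9 to 3.87 CPM) and stellate-like cells (-0.74, from 11.0 to 6.41 CPM) were called with 5 of 6 anemic mice below every control. These rested on few molecules: summed over mice, controls and anemic mice had 128 and 51 UMIs in T-like cells. Conventional dendritic-like cells had 124 and 38, and stellate-like cells 317 and 125. Neither stellate-like cluster was called on its own (-0.68 and -0.74). The calls in NK-like, erythroid-like and stellate-like cells were lost in 6, 7 and 7 of 12 fits with a single mouse removed (the values ran up to -0.57 in stellate-like cells and stayed below 0 in every fit). Without anemia 2 and anemia 3 together, H2-Q10 missed the threshold in NK-like (-0.80, edgeR adjusted p = 0.0506), erythroid-like (-1.32, adjusted p = 0.0691), conventional dendritic-like (-1.57, adjusted p = 0.0566) and stellate-like cells (-0.77, adjusted p = 0.0523), where 1.15%, 0.314%, 0.771% and 13.1% of all genes were called. In the unnamed cluster 24 (Rag1, Blnk, Il2ra) H2-Q10 was called lower as well, at -1.08, with 2.49% of genes called. Plasmacytoid dendritic-like cells (-1.06 ± 0.33, edgeR adjusted p = 0.121) and neutrophil-like cells (-0.23 ± 0.22, adjusted p = 0.712) were not called, and cholangiocyte-like cells had a value above 0 (0.64 ± 0.36).

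Hepatocyte RNA moved with H2-Q10 in these classes. The median log2 fold change of 8 hepatocyte genes (Alb, Apoa1, Ttr and others) outside hepatocyte-like cells was -1.09 in B-like, -0.93 in erythroid-like, -1.02 in pre-B-like, -0.85 in macrophage-like and -0.90 in endothelial-like cells, and -0.54 and 0.00 in the neutrophil-like and cholangiocyte-like classes, where H2-Q10 was not called. In B-like cells 5 of the 8 fell and 1, Apoc3, rose. For each 1000 UMIs of those 8 genes, hepatocyte-like cells held 4.68 UMIs of H2-Q10 in controls and 3.23 in anemic mice. The 14 classes other than hepatocyte-like and neutrophil-like held 2.91 to 5.95 in controls and 2.20 to 7.86 in anemic mice. Neutrophil-like cells held 11.4 and 15.0, above those ranges, which sum UMIs over mice. By mouse, neutrophil-like cells ran from 7.68 to 14.8 in controls and from 10.4 to 26.4 in anemic mice. Other classes overlapped them, with a highest control mouse at 8.61 in conventional dendritic-like cells. Highest anemic mice reached 22.1 in basophil/mast-like, 19.9 in pre-B-like and 16.5 in endothelial-like cells. Cluster 4 of the neutrophil-like class (Asprv1, Il1r2, Cxcr2) had 146 CPM of H2-Q10 against 21.1 and 6.49 CPM in its other clusters. Whether H2-Q10 UMIs outside hepatocyte-like cells were free RNA was not tested.

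**Figure D4:**
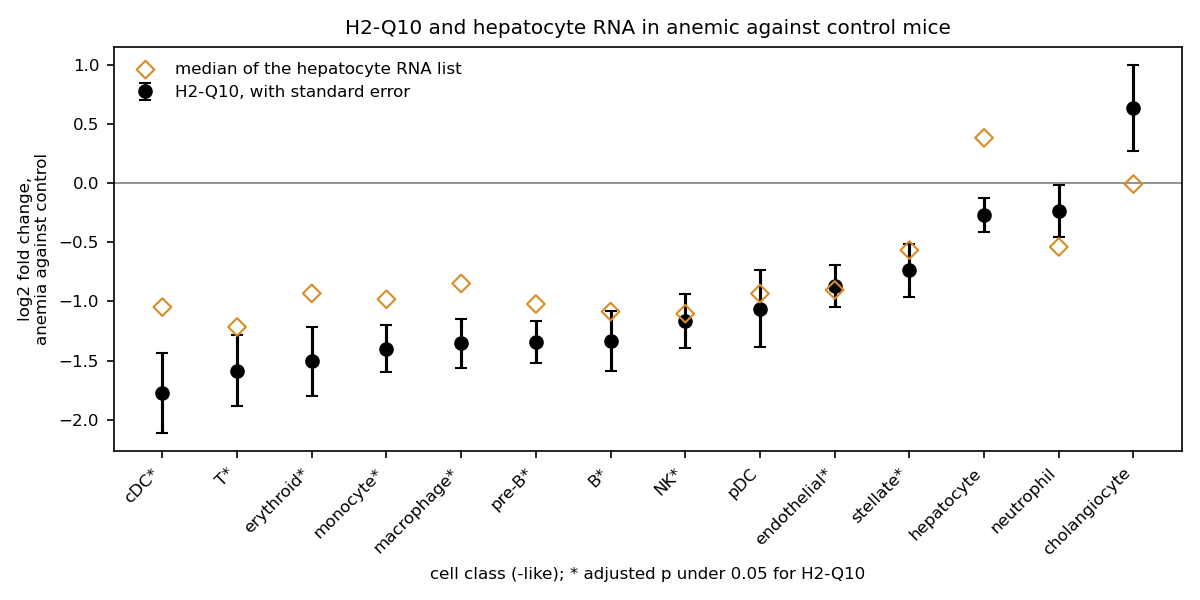
Log2 fold change of H2-Q10 in anemic against control mice with its standard error (black points) in the 14 cell classes where it was tested, and the median log2 fold change of 8 hepatocyte genes in the same class (open diamonds); asterisks mark an edgeR adjusted p under 0.05. The 10 called classes lie between -1.77 and -0.74, and the diamonds lie below 0 in all classes shown except hepatocyte-like (0.39) and cholangiocyte-like cells (0.00).

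In hepatocyte-like cells, the class with the highest level, H2-Q10 ran from 549 through 617 to 645 CPM in controls and from 267 through 453 to 500.2 CPM in anemic mice, and the groups did not overlap, as for 31.9% of genes tested there. It was not called by edgeR, with a log2 fold change of -0.26 ± 0.14 (adjusted p = 0.131). Without anemia 2 and anemia 3 it was called at -0.40 (adjusted p = 0.0218, with 52.6% of genes called), a gained call that is a description. The value also depended on TMM scaling, which centres the genes between libraries: without it the median gene of that class stood at -0.39 instead of -0.02 on the log2 scale, and H2-Q10 was called at -0.63 (edgeR adjusted p = 0.00092). It was also called with doublets left out (-0.45, adjusted p = 0.0158). Within clusters, H2-Q10 fell in cluster 13 (by 0.65 ± 0.12, from 839 to 524 CPM, edgeR adjusted p = 0.00223) and cluster 14 (by 0.55 ± 0.14, from 744 to 467 CPM, adjusted p = 0.0338). The values in clusters 12 and 15 were -0.26 (adjusted p = 0.316) and -0.42 (adjusted p = 0.102), where 8.47%, 4.11%, 7.43% and 4.46% of genes were called in clusters 13, 14, 12 and 15.

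Hepatocyte-like cells held 9 of the 25 calls, 6 higher and 3 lower, against a background of 54.1%, so a call in that class says little on its own. The directions there depended on the setting: 2 were called higher and 6 lower without TMM scaling (59.3% of genes called), 1 and 5 with doublets left out (51.2%), and 2 and 6 without anemia 2 and anemia 3 (52.6%), leaving H2-K1 and H2-D1 aside. H2-Ke6 ran from 82.3 through 92.3 to 109 CPM in controls and from 120.2 through 137 to 173 CPM in anemic mice. The groups did not overlap, and the log2 fold change was 0.86 ± 0.11 (edgeR adjusted p = 5.37e-06). Within clusters no difference was detected: H2-Ke6 stood at -0.06, 0.05, 0.04 and -0.17 in clusters 12, 13, 14 and 15, 0 of 4 were called by edgeR and 0 had an unadjusted p under 0.05. Its levels differed between those clusters, from 38.0 and 32.2 CPM in control and anemic mice in cluster 12 to 294 and 244 CPM in cluster 15, and cluster 15 (Gnmt, Uox, Cth) held 15.9% of control and 33.9% of anemic hepatocyte-like cells.

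With all mice and TMM scaling, the 3 members that fell in hepatocyte-like cells were non-classical class I genes. Without anemia 2 and anemia 3 the 6 lower ones also took in H2-Q6 (-1.44), H2-Q7 (-1.14) and H2-Q10, which is a description, since those mice stood out for class I. H2-Q4 ran from 11.9 through 16.2 to 23.5 CPM in controls and from 4.28 through 7.32 to 10.1 CPM in anemic mice, without overlap (log2 fold change -1.06 ± 0.23, edgeR adjusted p = 0.000826). H2-Q1 ran from 6.47 through 8.20 to 15.5 CPM and from 2.01 through 2.91 to 5.34 CPM, also without overlap (-1.31 ± 0.28, edgeR adjusted p = 0.000805), and 39.3% of the 25-base words of its transcript ends are shared with H2-Q2. H2-T23 ran from 103 through 119.8 to 128 CPM and from 63.4 through 68.0 to 112 CPM, with 5 of 6 anemic mice below every control (-0.37 ± 0.12, edgeR adjusted p = 0.016). It was also called in clusters 12 (-0.46) and 13 (-0.76). H2-Q4 (-0.79, adjusted p = 0.0844) and H2-Q1 (-1.04, adjusted p = 0.122) could be tested within cluster 12 alone and were not called there, and cluster 12 held 31.7% of control and 12.8% of anemic hepatocyte-like cells.

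At low levels, 4 of 6 class II genes tested and H2-T22 were called higher in hepatocyte-like cells, where 54.1% of all genes were called. H2-DMa (0.46, adjusted p = 0.289) and H2-Ob (0.95, adjusted p = 0.0573) were not. H2-Aa ran from 17.0 through 37.5 to 55.3 CPM in controls and from 27.7 through 73.4 to 134 CPM in anemic mice (log2 fold change 1.26 ± 0.34, edgeR adjusted p = 0.00509). H2-Ab1 (0.96), H2-Eb1 (1.20) and H2-DMb1 (1.16) were called as well, each with 3 of 6 anemic mice above every control, and so was Cd74 (1.71 ± 0.37, from 203 to 549 CPM, edgeR adjusted p = 0.000983). Without anemia 2 and anemia 3, H2-Aa stayed called (0.87, edgeR adjusted p = 0.0214), while H2-Ab1 (0.47, adjusted p = 0.225), H2-Eb1 (0.71, adjusted p = 0.0611) and H2-DMb1 (0.61, adjusted p = 0.139) did not. With single mice removed, H2-Ab1 lost its call in 8 of 12 fits (0.56 to 1.11, the lowest without anemia 2), H2-DMb1 in 5 (0.86 to 1.33) and H2-Eb1 in 1 (0.79 to 1.37). H2-T22 had 148 CPM in anemia 2 and 34.8 to 78.8 CPM in the other anemic mice, against 40.5 to 62.2 CPM in controls (0.70 ± 0.25, adjusted p = 0.0256). It stood at 0.30 without anemia 2 (edgeR adjusted p = 0.109) and at 0.24 without anemia 2 and anemia 3 (adjusted p = 0.145), and lost its call without control 4 or control 6 as well.

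The class II UMIs of this class were unevenly spread over its cells. Between 1 and 5 cells in each mouse held 10 or more class II UMIs, and these held from 8.87% of the class II UMIs in control 4 through 27.3% in anemia 2 to 84.9% in anemia 5. In anemia 5, 4 of 2805 hepatocyte-like cells held 664 of its 782 class II UMIs, and cells called as doublets held 22.6 to 87.9% of them over the 12 mice while being 5.14 to 11.0% of the cells. With doublets left out, H2-Aa stood at 0.60 (edgeR adjusted p = 0.335), H2-Ab1 at 0.71 (adjusted p = 0.268), H2-Eb1 at 0.85 (adjusted p = 0.208) and H2-DMb1 at 0.26 (adjusted p = 0.761). The summed monocyte markers in hepatocyte-like cells were 23.4 to 39.2 CPM in controls, 123 and 116 CPM in anemia 2 and anemia 3 and 13.9 to 29.6 CPM in the other anemic mice. Among clusters, class II genes were called in cluster 15, with H2-Aa at 2.38 ± 0.47 (adjusted p = 0.00272), and in no other. The part of doublets or of other cells in these values was not tested further.

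The classical class I genes were not called in any class. Of 32 pairs of H2-K1 or H2-D1 with a class, 0 were called by edgeR, 1 had an unadjusted p under 0.05, and DESeq2 and the joint voom model called 0. The median log2 fold change was 0.02. In NK-like cells H2-K1 ran from 1265 through 1364 to 1536 CPM in controls and from 1084 through 1197 to 1355 CPM in anemic mice (log2 fold change -0.18 ± 0.10, edgeR adjusted p = 0.486). In macrophage-like cells H2-D1 ran from 590 through 793 to 1071 CPM and from 443 through 640.1 to 693.5 CPM (-0.32 ± 0.18, adjusted p = 0.301).

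Anemic mice were not alike in classical class I. H2-K1 in endothelial-like cells was 1069 and 984 CPM in anemia 2 and anemia 3, 134 to 262 CPM in the other 4 anemic mice and 173 to 583 CPM in controls. In B-like cells it was 724 and 638 CPM in those libraries, 297 to 382 CPM in the other anemic mice and 287 to 480.5 CPM in controls. Anemia 2 and anemia 3 both lay above the other 4 anemic mice in 15 of 16 classes for H2-K1 and in 12 of 16 for H2-D1. The control median was above the anemic median in 14 and 13 of 16 classes. By means, controls were higher in 9 classes and anemic mice in 7 for H2-K1, and each in 8 for H2-D1. All classes come from the same mice, so they do not count as separate observations.

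Without both libraries the classical genes stood lower in anemic mice. Since anemia 2 and anemia 3 stood out for H2-K1 itself, the values without them are a description and no test. The log2 fold change was then below 0 in all 16 classes for each gene, from -0.93 for H2-K1 in erythroid-like cells to -0.07 for H2-D1 in pre-B-like cells. In hepatocyte-like cells H2-K1 ran from 209 through 314 to 462 CPM in controls and from 115 to 159 CPM in the other 4 anemic mice, with 294 and 377 CPM in anemia 2 and anemia 3. The class differed in make-up: cluster 12, with 424 CPM of H2-K1, held 31.7% of its control and 12.8% of its anemic cells, and cluster 15, with 51.8 CPM, held 15.9% and 33.9%. Within clusters 12, 13, 14 and 15 the value for H2-K1 with all mice was 0.17, -0.23, 0.05 and -0.22, none of them called. Its value there was -0.39 ± 0.26 with all mice (edgeR adjusted p = 0.214) and -0.85 ± 0.19 without both, and that of H2-D1 was -0.03 ± 0.24 (adjusted p = 0.94) and -0.52 ± 0.16. Without TMM factors the value for H2-K1 with all mice was -0.74 (adjusted p = 0.024).

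**Figure D5:**
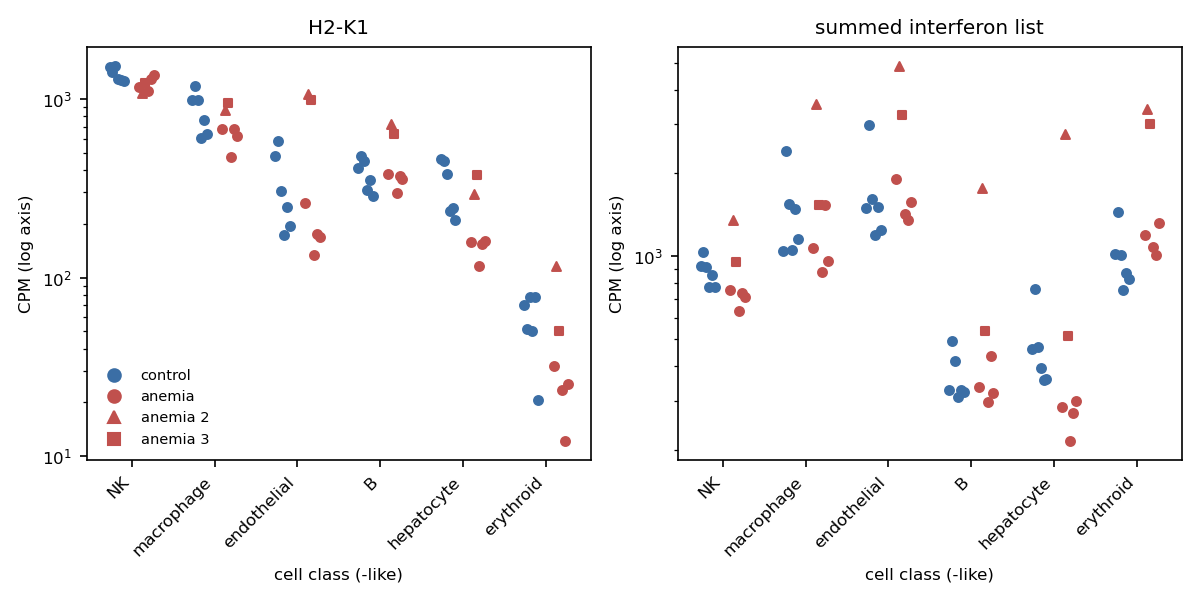
H2-K1 (left) and the summed level of 14 interferon-induced genes (right) in each mouse, in CPM on log axes, for 6 cell classes; blue points are controls, red points anemic mice, with a triangle for anemia 2 and a square for anemia 3. In endothelial-like cells H2-K1 reaches 1069 and 984 CPM in those libraries against 134 to 262 CPM in the other anemic mice, and the interferon sum of anemia 2 is the highest in every class shown.

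Of 15 class I pathway genes (among them B2m, Tap1, Tap2 and the immunoproteasome), 1 was called in endothelial-like cells, Calr, against 18.5% of all genes, and 8 in hepatocyte-like cells, a share near the 54.1% of all genes. There Psmb8, Psmb10, Psme1 and Psme2, proteasome genes, rose by 0.98 to 1.11 on the log2 scale, while Tap2, a peptide transporter chain, fell from 10.4 to 4.49 CPM (-0.89 ± 0.20, edgeR adjusted p = 0.00112), and Canx, Calr and the class I activator Nlrc5 fell too. Without anemia 2 and anemia 3, Psme1 and Psme2 stood at 0.42 and 0.56 and Psmb8 and Psmb10 at 0.02 and 0.23. Of 14 interferon genes, 3 rose (Irf7, Isg15, Rsad2) and 2 fell (Irf1, Oasl2) in hepatocyte-like cells, beside a background of 54.1%. Anemia 2 had 2774 CPM of their summed level there, against 215 to 758 CPM in the 10 mice other than anemia 2 and anemia 3. The median over the interferon genes was 0.89 in B-like, 0.42 in plasmacytoid dendritic-like and 0.64 in hepatocyte-like cells with all mice. It was -0.05, 0.02 and -0.64 without anemia 2 and anemia 3, which is a description, since anemia 2 stood out for these genes. In hepatocyte-like cells anemia 3 lay within the range of the other 10 mice.

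Whether the effect of anemia differed between classes was tested in a joint limma voom model with the mouse as a block. The interaction of class and condition had an adjusted p under 0.05 for 13 of 20 members tested, at a background of 63.4% of all genes, so this count does not set the members apart. The smallest values were 7.23e-10 for H2-Ke6, 1.22e-06 for H2-Q10 and 2.03e-06 for H2-Eb2, followed by 5.35e-05 for H2-M3 and 9.6e-05 for H2-Aa. H2-K1 (0.38) and H2-D1 (0.58) were among the 7 that missed the threshold. For H2-Aa, each class's own value was 0.49 in B-like and -0.58 in plasmacytoid dendritic-like cells.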

How the data were processed

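The deposited count matrices held whole UMI counts for each gene and barcode, made by the authors with Cell Ranger 7.0.0 against mm10 per the submitters' processing notes. The labels name a 3′ v2 protocol and the study's methods a v3.1 kit. Features and cell barcodes were used as deposited. Of 207537 barcodes, 206146 held 500 to 50000 UMIs with no more than 50% from mitochondria and were used. Cells were clustered without H2 genes (scanpy 1.11.5, 2000 variable genes, 20 principal components, 20 neighbours, Leiden resolution 2) and named from fixed markers, with 10219 cells kept unnamed by conditions added later. Doublets were called as the cells with the highest Scrublet scores in each library, up to an expected share of 0.8% per 1000 barcodes, and kept, then left out as an alternative. Calls ran from 2.05% of erythroid-like to 78.9% of cholangiocyte-like cells.

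Counts were summed by mouse and class and fitted with edgeR 4.0.16 (quasi-likelihood test, TMM, mean of at least 5 UMIs for each mouse, mitochondrial and ribosomal protein genes left out, Benjamini-Hochberg adjustment over all genes of a class). The interaction used limma 3.58.1 voom with the mouse as a block. On simulated counts with 200 changed genes, 183 were recovered in B-like, 166 in macrophage-like and 164 in hepatocyte-like cells, with 7, 9 and 7 false calls. Of 100 changes of 2 on the log2 scale, 98, 97 and 96 were recovered in these classes, and of 100 changes of 1, 85, 69 and 68. Smaller changes were not simulated. Alternatives covered the test (DESeq2 1.42.0, joint voom), scaling, filters, doublets, free RNA, clustering, the replicate block and left-out mice. Genes are named by the rule that every H2 gene counts, with values for the classical genes, H2-Q10, the class II surface genes and every called member. Intervals between mice cover these 12 animals only, and total depth was 45751640 to 74344118 UMIs. Members and lists were chosen with earlier results of these data known.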

Additional observations from a re-analysis of the deposited data

Results flagged for a closer look

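In 136 groups of 6 mice checked for a value far from the others, 7 were found, where chance gives about 1 in 20, or 6.8. Anemia 2 was the highest of the anemic mice in 4 of them: H2-D1 in basophil/mast-like cells at 476 CPM (others 139.7 to 259), H2-K1 in erythroid-like cells at 116 CPM (12.1 to 50.2), H2-Q10 in pre-B-like cells at 8.19 CPM (3.86 to 5.28) and H2-T23 in hepatocyte-like cells at 112 CPM (63.4 to 70.0). H2-D1 in macrophage-like cells was low in anemia 4, at 443 CPM (603 to 693.5). The class II share was high in macrophage-like cells of anemia 3, at 52.7% (8.94 to 24.5%), and in monocyte-like cells of control 2, at 17.0% (9.49 to 11.9%).

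The effect of anemia differed between cell classes for 13 members in the joint limma voom model. Adjusted p-values were 7.23e-10 for H2-Ke6, 1.22e-06 for H2-Q10, 2.03e-06 for H2-Eb2, 5.35e-05 for H2-M3 and 9.6e-05 for H2-Aa. They were 0.00122 for H2-Oa, 0.00124 for H2-Ob, 0.00523 for H2-Q4, 0.0148 for H2-Eb1, 0.0251 for H2-Q6, 0.0311 for H2-Ab1, 0.0423 for H2-DMb2 and 0.0483 for H2-DMa. With 63.4% of all genes past the same threshold, such a value was common.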

How the results depend on the processing

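The 25 calls became 11 with a mean of at least 50 UMIs, where fewer genes were tested, 14 in the joint voom model, 29 by DESeq2 and 36 with no filter on low counts, and the causes of the changes below were not tested. B-like calls went from 5 to 2 with that filter, a Y-linked covariate, H2 genes among the variable genes, resolution 1 or both mice out, and to 3 in cells with less free RNA or by joint voom. Hepatocyte-like calls went from 9 to 5 with that filter or joint voom. Plasmacytoid dendritic-like calls went from 2 to 4 with no filter, 1 in cells with less free RNA and 0 by joint voom. Classes with H2-Q10 called went from 10 to 3 with that filter. Shares past the threshold went from 1 class to 2 with 500 or 2000 UMIs or none thinned, where the B-like difference was 10.9, 8.34 or 12.0 points. The interaction passed for 8 members without the mouse block. Within clusters, hepatocyte-like values turned for H2-Ke6 (-0.060 in 12, -0.17 in 15), H2-Eb1 (-0.052 in 14) and H2-T22 (-0.26 in 12), and the conventional dendritic-like share turned to 0.314 points without doublets. With 1 mouse left out, calls were 15 (without control 1) to 27 in all, 2 to 7 in B-like, 7 to 10 in hepatocyte-like and 0 to 3 in plasmacytoid dendritic-like cells, 7 to 11 classes for H2-Q10, 1 to 2 classes for shares and 9 to 16 members for the interaction. Share differences were then 9.59 to 12.5 points in B-like, -17.1 to -15.3 in plasmacytoid dendritic-like, -0.72 to 0.85 in conventional dendritic-like, -0.095 to 1.26 in endothelial-like and -9.18 to 3.72 in macrophage-like cells (3.72 without control 2). Mice with the same replicate number matched each other best in at most 2 of 6 pairs of a class. These were mostly numbers 1 and 4, with correlations of 0.35 and 0.53 in NK-like cells, and whether those mice were paired was not tested. The replicate block moved the calls to 33, with 7, 11 and 3 in B-, hepatocyte- and plasmacytoid dendritic-like cells and 9 classes for H2-Q10. At this depth, members with a mean under 5 UMIs a mouse in a class were left out of the edgeR fits unless no filter was used.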

Other observations

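The clusters left without a name also carried H2 RNA, given here as values for all mice. Cluster 11 (Cd28, Zbtb16, Trdc), with 2723 control and 2073 anemic cells, had 1127 CPM of H2-K1 and 576 CPM of H2-D1. Cluster 49 (Hcar2, Acod1, Il1rn), with 49 control and 1589 anemic cells, had 775 CPM of H2-K1, 855 CPM of H2-D1 and a summed 417 CPM of H2-Aa, H2-Ab1 and H2-Eb1. That class II sum reached 1790 CPM in cluster 58 (Ubd, Cxcl9, Nos2; 156 and 209 cells) and 1483 CPM in cluster 48 (Ifng, Gzma, Il2rb), and stood at 194 CPM in cluster 24 (Rag1, Blnk, Il2ra; 5908 and 3557 cells).

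H2-M2, tested in 3 classes, was highest in conventional dendritic-like cells, from 0.677 to 43.5 CPM over the 12 mice.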
